A study of Mus musculus with 12 samples.

Results

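Rtf1, Rmdn3 and Eif2ak4 are genes of mouse chromosome 2 near Gjd2, the gene that was targeted in the mice studied here. They are 3 of 6427 genes with a value on the arrays. Their probes were taken as those to which the probe table gives a single gene of that name and which have values in all 12 samples: 4 of the 7 probes that the table lists for them, 2 of 3 for Rtf1, 1 of 1 for Rmdn3 and 1 of 3 for Eif2ak4. The 3 genes had been picked from among the measured neighbours of Gjd2 for their differences in these same samples. Rtf1 and Rmdn3 were picked in mice without Gja9 and Eif2ak4 in mice with 1 copy, so the differences between genotypes below are a description and carry no test.

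Brain RNA of 10-day-old C57Bl/6j mice was measured on spotted cDNA arrays with 2 colours. The groups were wildtype mice, mice without Gja9, labelled Gja9 (-/-) and called Gja9_null here, and mice with 1 copy, labelled Gja9 (+/-) and called Gja9_het, each with 4 samples. Gja9 is the older name of Gjd2. Both colours of an array held samples of 1 genotype, so each genotype lay on 2 arrays. Which samples shared an array is not in the labels and was read from the values. The labels do not give the sex or litter of the mice, the cells or strain in which the targeted allele was made, or the number of backcrosses. Nothing in them says that samples of a genotype came from separate mice beyond the words biological replicas, so the spread given here is that between samples. Values are log2 signals relative to the mean signal of the same sample.

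Gjd2 encodes connexin36, which forms the gap junctions of electrical synapses between neurons. Genes close to a targeted locus are inherited with it. An allele made in cells of another strain can therefore keep that strain's sequence around it through backcrossing, and transcripts of such neighbours can differ for reasons other than the loss of the targeted gene. Whether these mice carry such a stretch was not tested. Rtf1 is a subunit of the Paf1 complex, which travels with RNA polymerase II and is needed for ubiquitination of histone H2B. Rmdn3, also known as PTPIP51, is a protein of the outer mitochondrial membrane that tethers mitochondria to the endoplasmic reticulum. Eif2ak4 encodes GCN2, the kinase that senses uncharged tRNA when amino acids are short and phosphorylates the translation factor eIF2.

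All 3 genes lay on the same side of Gjd2, and none was next to it. In the RefSeq order of protein-coding genes, 13 genes lay between Gjd2 and Eif2ak4, 32 between Gjd2 and Rmdn3, and 50 between Gjd2 and Rtf1. The start sites in the RefSeq promoter table (build GRCm38.p6) were 4.37, 5.14 and 5.66 Mb from that of Gjd2. The 250 bases before each start site are given, 5′ to 3′ on the strand of the gene, because they place each gene and its direction relative to the targeted one. The windows are chr2:114013620-114013869 (minus strand) for Gjd2, chr2:118388367-118388616 (plus) for Eif2ak4, chr2:119157035-119157284 (minus) for Rmdn3 and chr2:119674818-119675067 (plus) for Rtf1. RefSeq lists 2 start sites for Eif2ak4, and the one nearest the 5′ end of the gene is shown. Capitals mark the GC box GGGCGG on either strand.
Gjd2: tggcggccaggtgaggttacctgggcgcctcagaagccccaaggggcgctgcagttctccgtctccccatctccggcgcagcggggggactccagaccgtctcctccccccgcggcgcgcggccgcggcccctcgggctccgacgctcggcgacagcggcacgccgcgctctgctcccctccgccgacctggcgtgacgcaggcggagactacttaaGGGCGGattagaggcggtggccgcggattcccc
Eif2ak4: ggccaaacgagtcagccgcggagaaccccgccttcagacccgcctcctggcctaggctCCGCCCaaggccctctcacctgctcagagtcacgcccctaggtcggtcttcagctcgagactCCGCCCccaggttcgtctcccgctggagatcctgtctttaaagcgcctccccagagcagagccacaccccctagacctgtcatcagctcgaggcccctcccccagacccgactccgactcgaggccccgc
Rmdn3: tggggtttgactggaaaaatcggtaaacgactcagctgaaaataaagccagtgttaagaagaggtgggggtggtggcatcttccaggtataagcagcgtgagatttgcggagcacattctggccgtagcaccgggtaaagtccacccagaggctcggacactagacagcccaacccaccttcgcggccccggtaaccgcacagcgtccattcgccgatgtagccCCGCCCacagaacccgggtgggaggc
Rtf1: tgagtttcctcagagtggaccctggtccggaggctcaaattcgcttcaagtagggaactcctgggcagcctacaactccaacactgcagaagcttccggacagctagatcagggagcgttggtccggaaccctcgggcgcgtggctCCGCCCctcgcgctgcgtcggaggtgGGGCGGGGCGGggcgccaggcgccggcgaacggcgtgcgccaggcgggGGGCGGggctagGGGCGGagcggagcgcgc
The window of Rtf1 held 5 GC boxes, overlapping ones counted, that of Eif2ak4 held 2, and those of Rmdn3 and Gjd2 held 1 each. A GC box was present in 32.7% of the 32851 promoter windows of this length, on either strand. The CCAAT box (letters CCAAT, either strand) was in none of the 4 windows and in 33.8% of all. These are matches of letters in a window and not known binding sites.

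The samples taken to share an array, 1 with 2 and 3 with 4 of each genotype, were nearly alike. That pairing was itself read from the values, so the likeness is no separate result. The correlation of such samples over probes was 0.986 to 0.991, against 0.865 to 0.921 between arrays of the same genotype. The array with Gja9_null samples 1 and 2 stood apart, with a score of 54.6 on the leading component of a principal component analysis over arrays, where the others lay between -23.3 and 12.6. Probes with near numbers also deviated together on an array. For that reason the values of the 3 genes, and those of some other genes, are also given after local centring. It subtracts from a sample the median deviation of the probes within 50 probe numbers. The marker sums below are given as deposited only. The targeted gene itself could not be followed, since the probe table lists 0 probes for Gjd2. Of the neuronal markers, 5 of 8 were measured (Syt1, Tubb3, Nefm, Nefl and Map2), and their summed signal was 19.4 to 24.3 times the mean signal of a sample in wildtype, 13.9 to 24.7 in Gja9_null and 20.2 to 24.3 in Gja9_het. The sum of 2 oligodendrocyte markers of 6, Mbp and Cnp, was 12.9 to 17.2, 6.30 to 13.7 and 8.35 to 15.4 in the same order. The sum of 3 astrocyte markers of 6 (Slc1a3, Aldoc and Glul) was 6.28 to 7.12, 7.19 to 11.7 and 4.87 to 5.74, highest in Gja9_null with no overlap. The sum of 3 microglia markers of 5 (C1qa, C1qb and Tyrobp) was 2.30 to 3.42, 1.66 to 2.54 and 3.46 to 3.92, highest in Gja9_het with no overlap. Both gaps to wildtype were narrow, 7.12 to 7.19 for astrocyte and 3.42 to 3.46 for microglia markers. Among single features, samples did not overlap in 23.1% between Gja9_null and wildtype. It was 14.8% between Gja9_het and wildtype and 32.7% between Gja9_null and Gja9_het. Sums of 2 endothelial markers of 4, 3 blood markers of 6 and 1 choroid plexus marker of 4 overlapped between all genotypes. The part of these marker levels in the results below was not tested. In whole brain RNA, fewer cells of a type and less RNA per cell cannot be told apart.

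Rtf1 had lower values in Gja9_null than in wildtype and Gja9_het brains, but its 2 clones did not give the same picture. The clone at probe number 4872 stood at -2.05, -1.85, -1.32 and -1.15 in wildtype samples 1 to 4. It stood at -2.10, -2.09, -2.87 and -3.05 in the Gja9_null samples and at -1.38, -1.46, -1.72 and -1.90 in the Gja9_het samples. All Gja9_null samples were below all wildtype samples, though the highest Gja9_null sample, at -2.09, was next to the lowest wildtype sample, at -2.05. The 2 arrays of a genotype lay 0.71 apart in wildtype and 0.87 in Gja9_null, while the 2 colours of an array were at most 0.21 apart. Gja9_null differed from wildtype by -0.93 ± 0.43 log2 units at this clone (SE, 4 samples on 2 arrays per genotype), and Gja9_het by -0.02 ± 0.43.

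The arrays that were high or low at this clone were also high or low at the probes around it. The local median at probe 4872 was about the same in size and opposite in sign on the wildtype arrays, with means of -0.47 and 0.45, and it was 0.29 and -0.44 on the Gja9_null arrays. After local centring, the wildtype samples stood at -1.55, -1.42, -1.79 and -1.58, and the Gja9_null samples at -2.35, -2.41, -2.46 and -2.59. The gap between the arrays of a genotype shrank to 0.20 in wildtype and 0.14 in Gja9_null. All Gja9_null samples then lay well below every wildtype and Gja9_het sample, the Gja9_het samples being at -1.63, -1.66, -1.88 and -1.97. The difference from wildtype was -0.87 ± 0.22 in Gja9_null and -0.20 ± 0.22 in Gja9_het. This clone was among the 25% of probes with the lowest mean signal.

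The other Rtf1 clone, at probe number 28399, stood at 0.31, 0.24, 0.41 and 0.30 in wildtype and at 0.30, 0.05, 0.11 and 0.00 in Gja9_het. In Gja9_null it stood at -0.64 and -0.81 in samples 1 and 2 and at 0.23 and 0.03 in samples 3 and 4. Only the first Gja9_null array was low, and the second overlapped the Gja9_het samples and lay just below wildtype. The difference from wildtype was -0.61 ± 0.34 in Gja9_null and -0.20 ± 0.34 in Gja9_het. The probes around it were low on that same array, with a local median of -0.83, against 0.14 on the second Gja9_null array. After local centring the Gja9_null samples stood at 0.19, 0.03, 0.09 and -0.11, within the wildtype and Gja9_het range but for 1 sample, and the difference from wildtype was 0.02 ± 0.18. After local centring, the lower value of Rtf1 in Gja9_null was thus seen at 1 of its 2 clones. The part of what neighbouring probes share in these differences was not tested otherwise.

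**Figure D1:**
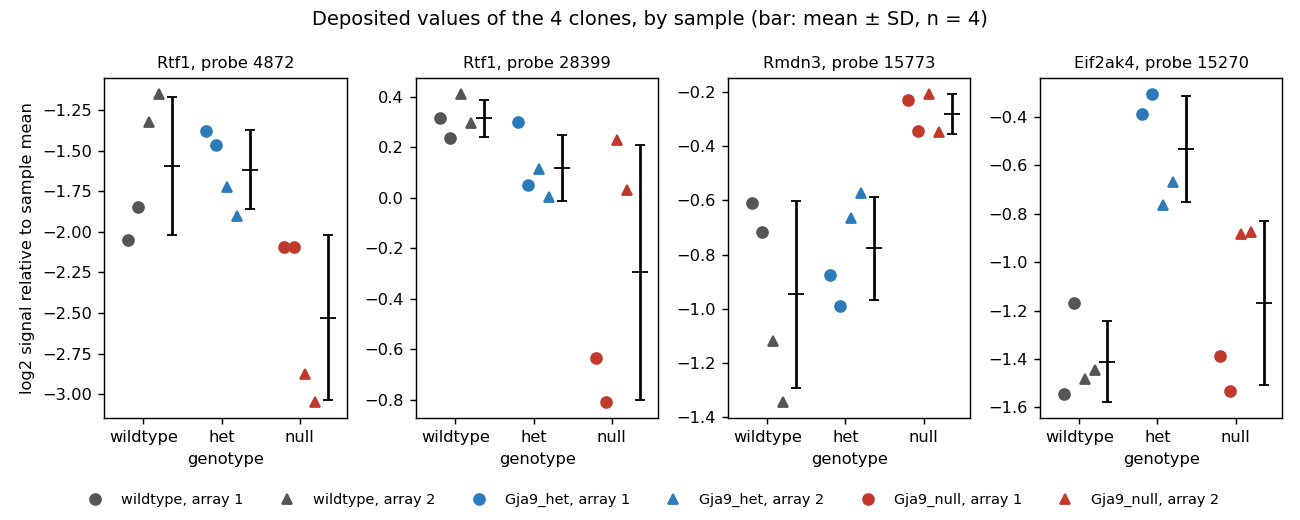
Deposited log2 signals of the 4 clones of Rtf1, Rmdn3 and Eif2ak4 in each of the 12 samples, by genotype, with circles for the first and triangles for the second array of a genotype and bars for mean ± SD (n = 4). At Rtf1 probe 28399 the Gja9_null samples of array 1 stand alone at -0.64 and -0.81, while the 4 Gja9_null samples of Rmdn3 lie together between -0.35 and -0.21.

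With both clones averaged, Rtf1 stood at -0.87, -0.81, -0.46 and -0.43 in wildtype, -1.37, -1.45, -1.32 and -1.51 in Gja9_null and -0.54, -0.71, -0.81 and -0.95 in Gja9_het. Every Gja9_null sample was below every sample of the other genotypes. The difference was -0.77 ± 0.30 from wildtype and -0.66 ± 0.30 from Gja9_het. After local centring it was -0.42 ± 0.17 and -0.31 ± 0.17. The 4 Gja9_null averages lay close together, while the clones behind them deviated on different arrays, the one being lower on the second array and the other on the first.

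Rmdn3 had higher values in Gja9_null than in the other genotypes. Its single clone, at probe number 15773, stood at -0.23, -0.34, -0.21 and -0.35 in Gja9_null, at -0.61, -0.72, -1.12 and -1.34 in wildtype and at -0.88, -0.99, -0.67 and -0.57 in Gja9_het. All 4 Gja9_null samples were above all 8 others, and their arrays lay 0.01 apart, against 0.57 in wildtype and 0.31 in Gja9_het. The difference from wildtype was 0.67 ± 0.31 in Gja9_null and 0.17 ± 0.31 in Gja9_het, and Gja9_null differed from Gja9_het by 0.50 ± 0.31. The summed astrocyte markers given above were likewise highest in all Gja9_null samples, and their part in this difference was not tested.

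The probes around Rmdn3 moved in the same direction. Their local median was 0.19 and 0.24 on the Gja9_null arrays, -0.07 and -0.35 on the wildtype arrays and -0.06 and 0.24 on the Gja9_het arrays. After local centring the Gja9_null samples of Rmdn3 stood at -0.46, -0.50, -0.48 and -0.55, just above the highest wildtype sample at -0.56. The other wildtype samples stood at -0.63, -0.77 and -0.98, and the Gja9_het samples lay between -0.92 and -0.80. The difference from wildtype was then 0.24 ± 0.19 in Gja9_null and -0.13 ± 0.19 in Gja9_het, and that between Gja9_null and Gja9_het was 0.37 ± 0.19. The order of Gja9_null over wildtype over Gja9_het means thus replaced that of Gja9_null over Gja9_het over wildtype, and wildtype and Gja9_het did not differ beyond their spread on either scale.

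Eif2ak4 had higher values in Gja9_het than in the other genotypes. Its single measured clone, at probe number 15270, stood at -0.39, -0.30, -0.77 and -0.67 in Gja9_het and at -1.55, -1.17, -1.48 and -1.45 in wildtype. In Gja9_null it stood at -1.39 and -1.53 on the first array and at -0.88 and -0.87 on the second. All Gja9_het samples were above all others, while the Gja9_null arrays lay 0.58 apart, the first within the wildtype range and the second above it. The difference from wildtype was 0.88 ± 0.37 in Gja9_het and 0.24 ± 0.37 in Gja9_null. Gja9_null differed from Gja9_het by -0.64 ± 0.37. The summed microglia markers given above, at 3.46 to 3.92 in Gja9_het and 2.30 to 3.42 in wildtype, were likewise highest in all Gja9_het samples, and their part in this difference was not tested.

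Without the first Gja9_null array, the value of Gja9_null against wildtype was 0.53 ± 0.36 and against Gja9_het -0.35 ± 0.36. Local centring did not bring the arrays of Eif2ak4 together. The Gja9_het samples stood at -0.27 and -0.14 on the first array and at -0.97 and -0.91 on the second, 0.73 apart, and the Gja9_null arrays were 0.67 apart. The Gja9_het samples stayed above all others, but the lowest of them, at -0.97, was next to the highest Gja9_null sample, at -0.99. The difference of Gja9_het from wildtype was 0.62 ± 0.30 and that of Gja9_null turned to -0.15 ± 0.30. Both Eif2ak4 and Rmdn3 rest on 1 clone, so no second probe could be compared.

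**Figure D2:**
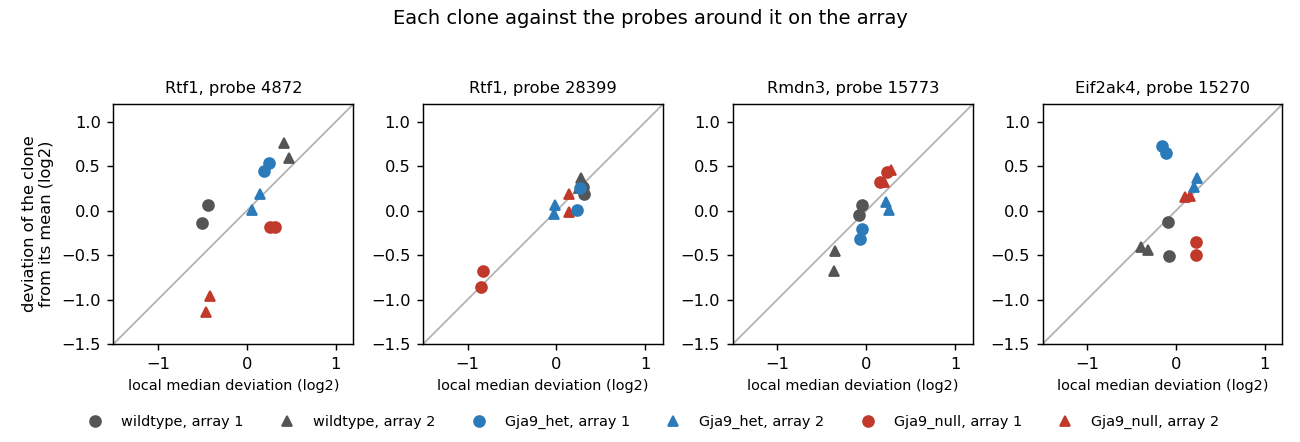
Deviation of each clone from its own mean over the 12 samples (vertical axis, log2) against the median deviation of the probes within 50 probe numbers (horizontal axis, log2), with colours for genotypes, symbols for arrays and a grey line of equal values. The Rtf1 clone at probe 28399 follows the line, down to the first Gja9_null array at a local median of -0.83, while at probe 4872 all 4 Gja9_null samples lie below it.

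None of the 3 genes passed the test across all features. With limma (Benjamini-Hochberg adjustment over 9514 features, called at an adjusted p under 0.05), 0 of the 3 genes were called in each of the 3 comparisons, which share groups of samples. The background was 0.326% of features called between Gja9_null and wildtype, 0% between Gja9_het and wildtype and 0.273% between Gja9_null and Gja9_het. After local centring, 0 of the 3 were called as well, beside 0.589%, 0.0105% and 1.41% of features in the same order. The unadjusted p was under 0.05 for 2 of the 3 genes between Gja9_null and wildtype, Rtf1 and Rmdn3, for 1 between Gja9_het and wildtype, Eif2ak4, and for 1 between Gja9_null and Gja9_het, Rtf1. These are the values by which the genes had been picked, and nothing is read from them.

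Samples that do not overlap between genotypes were common on these arrays, where 2 samples share each array. Between Gja9_null and wildtype the 4 samples of one genotype lay wholly above or below those of the other in 23.1% of features, and Rtf1 and Rmdn3 were among them. This was so in 14.8% of features between Gja9_het and wildtype, Eif2ak4 among them, and in 32.7% between Gja9_null and Gja9_het, where all 3 genes were among them. After local centring the same genes did not overlap, beside 26.8%, 16.9% and 31.9% of features. A difference larger in size than that of Rtf1 between Gja9_null and wildtype was found in 14% of features, and one larger than that of Rmdn3 in 18.8%. For Eif2ak4 between Gja9_het and wildtype it was 1.80% of features, and 4.90% after local centring. After local centring, 23.2% and 48.3% of features exceeded Rtf1 and Rmdn3 between Gja9_null and wildtype.

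**Figure D3:**
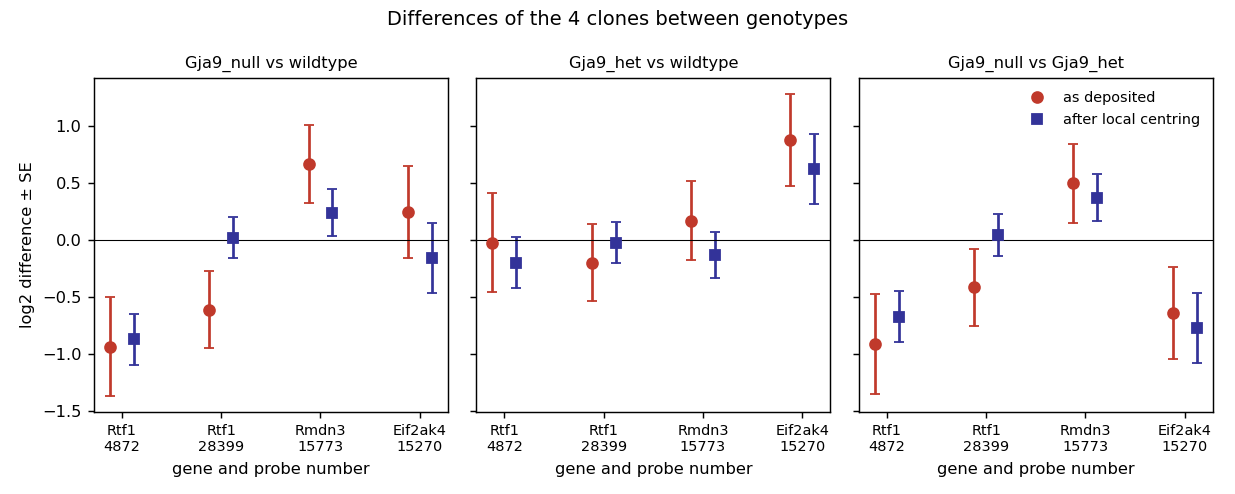
Differences of the 4 clones in log2 units, with SE, in the 3 comparisons between genotypes, as deposited (circles) and after local centring (squares). Rtf1 at probe 4872 stays at -0.87 ± 0.22 between Gja9_null and wildtype, while Rtf1 at probe 28399 goes from -0.61 ± 0.34 to 0.02 ± 0.18.

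The measured genes around Gjd2 lay on both sides of 0 in each comparison. Of the 100 protein-coding genes on either side of it, 51 were measured, and limma called 0 of 51 in each comparison. Their smallest adjusted p was 0.288 between Gja9_null and wildtype, 1 between Gja9_het and wildtype and 0.124 between Gja9_null and Gja9_het. At an unadjusted p under 0.05, 8, 1 and 10 of the 51 were found in the same order (15.7%, 2.0% and 19.6%, against 11.6%, 2.2% and 15.0% of all features). The Rtf1, Rmdn3 and Eif2ak4 values that picked these genes are among those counts.

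Between Gja9_null and wildtype, 20 of the 51 genes had values above 0 and 31 below. Their median difference was -0.14 log2 units and the median size of the difference 0.36, against -0.10 and 0.31 over all features. Between Gja9_het and wildtype, 31 were above 0 and 20 below, with a median of 0.06 and a median size of 0.19, against 0.03 and 0.20. Between Gja9_null and Gja9_het the median was -0.21 and the median size 0.35, against -0.17 and 0.37. After local centring the medians were -0.07, 0.09 and -0.04, and the median sizes 0.24, 0.15 and 0.23, against 0.23, 0.18 and 0.26 over all features.

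Without Rtf1, Rmdn3 and Eif2ak4, the other 48 genes had medians of -0.15, 0.06 and -0.19. Ranked by size within the 51 genes, Rtf1 was at rank 9 and Rmdn3 at rank 12 between Gja9_null and wildtype, and Eif2ak4 at rank 2 between Gja9_het and wildtype. After local centring these ranks were 12, 26 and 2.

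**Figure D4:**
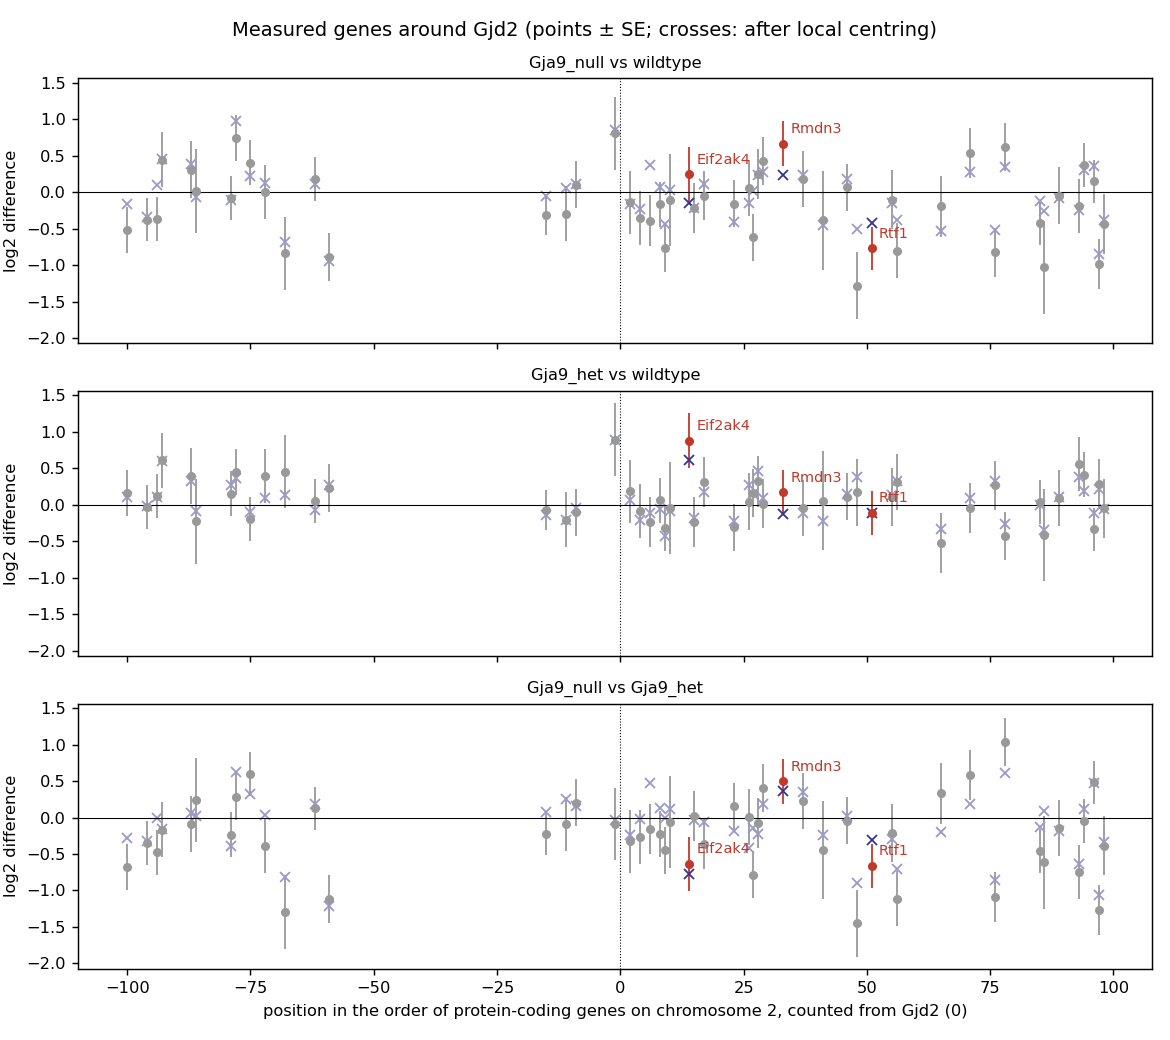
Log2 differences with SE (points) and after local centring (crosses) of the 51 measured genes among the 100 protein-coding genes on either side of Gjd2, by their place in the gene order, in the 3 comparisons. Rtf1, Rmdn3 and Eif2ak4, in red, lie among neighbours of either sign, and 20 of the 51 genes are above 0 between Gja9_null and wildtype.

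The gene nearest to Gjd2 with a value was Arhgap11a, directly beside it on the other side from the 3 genes. It was measured with 1 clone of low signal, with means of -3.33 in wildtype, -2.52 in Gja9_null and -2.43 in Gja9_het. The values were higher in both mutant genotypes. Arhgap11a stood at -2.92, -2.80, -4.17 and -3.42 in wildtype, at -2.49, -2.26, -2.77 and -2.57 in Gja9_null and at -2.47, -2.36, -2.45 and -2.45 in Gja9_het. All mutant samples were above all wildtype samples, and the second wildtype array was the lowest. The lowest Gja9_null sample, at -2.77, was next to the highest wildtype sample, at -2.80. Samples did not overlap in 23.1% of all features between Gja9_null and wildtype and in 14.8% between Gja9_het and wildtype. The difference from wildtype was 0.81 ± 0.50 in Gja9_null (limma adjusted p = 0.575) and 0.89 ± 0.50 in Gja9_het (adjusted p = 1), in comparisons that share the wildtype samples. It hardly changed with local centring, at 0.85 ± 0.36 and 0.89 ± 0.36.

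The next measured genes on that side were Emc7 and Emc4, subunits of a complex that inserts membrane proteins into the endoplasmic reticulum. Between Gja9_null and wildtype Emc7 differed by 0.10 ± 0.32 and Emc4 by -0.30 ± 0.38, or by 0.05 ± 0.21 after local centring. On the side of the 3 genes the nearest were Aqr, a helicase gene of the spliceosome, at -0.14 ± 0.43, Dph6, an enzyme of diphthamide synthesis, at -0.36 ± 0.37, and Meis2, a homeobox gene, at -0.39 ± 0.34. With local centring Meis2 stood at 0.37 ± 0.21 in this comparison. In Gja9_het against wildtype, these 5 genes lay between -0.24 and 0.18, and none of them passed the test in any comparison.

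As deposited, the genes directly beside the 3, in the order of measured genes, had smaller differences at Eif2ak4 and Rmdn3. At Rtf1, 1 of them had a larger one. Rasgrp1, which activates Ras in neurons and lymphocytes, and Srp14, a subunit of the signal recognition particle, lie on either side of Eif2ak4. They differed by -0.04 ± 0.63 and -0.24 ± 0.34 between Gja9_het and wildtype, where Eif2ak4 was at 0.88 ± 0.37. Ccdc32 and Zfyve19, the latter a gene of the abscission checkpoint, lie on either side of Rmdn3. They differed by 0.42 ± 0.33 and 0.18 ± 0.38 between Gja9_null and wildtype, where Rmdn3 was at 0.67 ± 0.31. After local centring Rmdn3 no longer stood out from them, with Ccdc32 at 0.28 ± 0.21, Zfyve19 at 0.23 ± 0.21 and Rmdn3 at 0.24 ± 0.19. None of these differences was tested against that of its neighbour.

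Nusap1, a spindle protein gene, and Tyro3, a receptor tyrosine kinase gene, lie on either side of Rtf1. Tyro3 differed by -0.10 ± 0.40 between Gja9_null and wildtype. Nusap1 had the largest difference of the 51 genes in this comparison, at -1.28 ± 0.46 (limma adjusted p = 0.297), and did not pass. It stood at -0.37, -0.54, -0.86 and -0.63 in wildtype, -2.46, -2.71, -1.23 and -1.13 in Gja9_null and -0.68, -0.56, -0.25 and -0.25 in Gja9_het. Here too the first Gja9_null array was the lowest, and local centring brought the difference to -0.51 ± 0.27.

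The measured partners of Rtf1 in the Paf1 complex did not pass the test. Paf1, Ctr9 and Cdc73, subunits of the complex, were measured with 1 clone each. Between Gja9_null and wildtype they differed by 0.42 ± 0.35, -0.14 ± 0.57 and -0.14 ± 0.36, where Rtf1 was at -0.77 ± 0.30. After local centring Paf1 stood at 0.19 ± 0.30, Ctr9 at 0.11 ± 0.415, Cdc73 at -0.22 ± 0.23 and Rtf1 at -0.42 ± 0.17. Of 35 listed genes of this complex and of transcription elongation, Rtf1 among them, 23 were measured. Of these, 0 were called in any comparison, beside 0.326%, 0% and 0.273% of all features in the order given above. The median of the 23 genes was -0.04 between Gja9_null and wildtype, 0.02 between Gja9_het and wildtype and -0.05 between Gja9_null and Gja9_het. Over all features it was -0.10, 0.03 and -0.17.

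For Eif2ak4, the stress response to which GCN2 belongs was read from 19 of 37 listed genes, Eif2ak4 among them. Of these, 0 were called in any comparison, beside 0.326%, 0% and 0.273% of all features. Eif2ak3, which encodes the related kinase PERK of the endoplasmic reticulum, differed by 0.16 ± 0.42 between Gja9_het and wildtype, and Impact, which encodes an inhibitor of GCN2 activation, by -0.01 ± 0.40. Atf4, the transcription factor whose translation rises when eIF2 is phosphorylated, stood at -0.91, -0.83, -1.29 and -1.07 in Gja9_het and at -1.09, -0.95, -1.40 and -1.23 in wildtype. The Gja9_het and wildtype samples of Atf4 overlapped, with a difference of 0.14 ± 0.33. In Gja9_null Atf4 stood lower, at -2.16, -2.33, -1.91 and -1.81, with all 4 samples below those of the other genotypes. Samples did not overlap in 23.1% of all features between Gja9_null and wildtype and in 32.7% between Gja9_null and Gja9_het. The difference of Atf4 in Gja9_null was -0.88 ± 0.33 from wildtype and -1.03 ± 0.33 from Gja9_het (limma adjusted p of 0.329 and 0.179). After local centring it was -0.59 ± 0.28 and -0.70 ± 0.28. The Gja9_null and wildtype samples of Atf4 then overlapped, with Gja9_null sample 1 at -1.54 and wildtype sample 3 at -1.62. The median of the 19 genes was -0.15, 0.07 and -0.41 in the 3 comparisons, in the order given above. Over all features it was -0.10, 0.03 and -0.17. After local centring the median of the 19 genes was -0.06, 0.05 and -0.11, against -0.01, 0.01 and -0.02 over all features.

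Rmdn3 holds on to the endoplasmic reticulum through the membrane proteins encoded by Vapa and Vapb. Between Gja9_null and wildtype Vapb differed by 0.44 ± 0.27 and Vapa by -0.47 ± 0.51, and Mfn2, a mitofusin gene also placed at such contacts, by -0.33 ± 0.51. None passed the test. With local centring Vapb stood at 0.40 ± 0.21, Vapa at 0.14 ± 0.28 and Mfn2 at -0.17 ± 0.32. Of 41 listed genes of these contacts and of lipid exchange, Rmdn3 among them, 28 were measured and 0 were called. The share called over all features was 0.326%, 0% and 0.273%. Medians of the 28 genes were 0.05, -0.06 and 0.02, against -0.10, 0.03 and -0.17 over all features. After local centring 1 of the 28 was called between Gja9_null and Gja9_het, where the background was 1.41% of features. The median there was 0.19, against -0.02 over all features.

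The genes most like each of the 3 were taken by Pearson's r over the 6 array means, among 6426 other genes. For Rtf1 they were Prkaca, a catalytic subunit of protein kinase A (r = 0.997), Carnmt1, a carnosine methyltransferase (0.993), and Ccng1, cyclin G1 (0.985). For Rmdn3 they were Mrpl15 of the mitochondrial ribosome (0.993), the transcription factor Klf9 (0.990) and Tmem33 (0.989). For Eif2ak4 they were Tuba8, an alpha-tubulin (0.987), Dock5 (0.984) and Numb, an inhibitor of Notch signalling (0.978). With so few arrays a high r is common: 123 genes had an r over 0.9 with Rtf1, 68 with Rmdn3 and 33 with Eif2ak4. The points share the arrays and what is common to near probe numbers. After local centring, r with Rtf1 was 0.606 for Prkaca, 0.863 for Carnmt1 and 0.882 for Ccng1. With Rmdn3 it was 0.799 for Mrpl15, 0.983 for Klf9 and 0.738 for Tmem33, and with Eif2ak4 it was 0.828 for Tuba8, 0.950 for Dock5 and 0.948 for Numb.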

How the data were processed

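The authors' deposited values are log2 signals of 2-colour cDNA arrays. In every sample, 2 to the power of the value averages 1, so each is relative to its sample's mean (earlier steps: not given in the sources used here). There were 28704 probes, and 13443 have values in all samples. Probes were named through the platform's probe table, with symbols updated by gene number from RefSeq (GRCm38.p6). Of these probes, 10356 have 1 gene, 560 several and 2527 none. Clones of a gene were averaged, giving 9514 features. Arrays have no depth, and their number limits the precision.

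The sharing of arrays was read from the values: the difference between samples 1 and 3 correlated with that between 2 and 4 at 0.919 to 0.940, so samples 1 and 2, and 3 and 4, were taken to share an array. Differences come from limma 3.58.1 (R 4.3.3) over the 12 samples, with terms for genotype and for dye, the array as a random block (correlation 0.927) and Benjamini-Hochberg adjustment over all features. The dye was taken from the label field, which for wildtype 3 and Gja9_null 1 is not the dye of the labelling text. The fit was also run on simulated data, in which each feature had its own array effects. On these arrays near probe numbers deviated together, so that run does not check the fit under such sharing. Same-numbered wildtype and Gja9_het samples deviated together (correlations 0.11, 0.23, 0.17 and 0.16, not independent since colours of an array were nearly alike). This was read from the values and not the labels. The replicate number was therefore added as a block in 1 alternative fit, while the main fit has no such term. Same-numbered samples also share a dye.

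Genes, lists and tests were chosen with earlier results of these data known. Named are the 3 genes and their clones, the 3 measured genes nearest to Gjd2 on either side, those beside each of the 3, partners by role and the 3 most alike genes. Alternatives covered the block, the dye, normalization, local centring, array means, dim probes, the prior, the window and leaving out samples.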

Additional observations from a re-analysis of the deposited data

How the results depend on the processing

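Each difference of the 3 genes was recomputed under 27 alternatives, 243 values in all. Of these, 225 moved by less than the SD between samples of a genotype, 18 moved by more, and 4 changed sign. The 225 include many values that could not move, so their number does not measure stability. In this balanced design, changes of the block, the dye term or the prior leave a difference as it was. So do averaging the colours of an array and leaving out samples of the genotype outside the comparison. Local centring, with or without averaging the colours of an array, gave between Gja9_null and wildtype -0.42 for Rtf1, 0.24 for Rmdn3 and -0.15 for Eif2ak4, between Gja9_het and wildtype -0.13 for Rmdn3 and 0.62 for Eif2ak4, and between Gja9_null and Gja9_het -0.31 for Rtf1. The sign changes were those of Eif2ak4 in Gja9_null and of Rmdn3 in Gja9_het. Between Gja9_null and Gja9_het, Rtf1 stood at -0.46 after quantile normalization, -0.49 after cyclic loess and -0.41 without the 25% dimmest probes or with its brightest clone alone. Without the first Gja9_null array, Eif2ak4 in Gja9_null stood at 0.53 against wildtype and -0.35 against Gja9_het.

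The number of features called depended on the setting, and the cause was not tested. Between Gja9_null and wildtype, 31 were called (11 higher, 20 lower). There were 5 (5 and 0) with quantile normalization, 8 (8 and 0) with cyclic loess, 56 (33 and 23) with local centring, 2 with array means and 0 with both. There were 3 with only the 2 genotypes in the fit, 7 without the 25% dimmest probes, 17 with every probe alone and 51 without the first Gja9_null array, and between 13 and 25 without each sample. Median centring gave 13 higher and 10 lower. Between Gja9_null and Gja9_het, 26 were called (1 higher, 25 lower). There were 0 with median centring, quantile normalization, cyclic loess, array means, array means with local centring, without the 25% dimmest probes or with every probe alone, 1 with only the 2 genotypes, 5 with a trend and robust prior, 64 with no dye term, 134 with local centring, 95 without the first Gja9_null array and between 0 and 20 without each sample. It was 0 without any 1 of wildtype 3 and Gja9_het 2, 3 and 4. Between Gja9_het and wildtype, limma called 0 (208 at an unadjusted p under 0.05) and 1 with local centring. In the settings with 0 calls, the features at an unadjusted p under 0.05 were 1171 between Gja9_null and wildtype, 158 to 518 between Gja9_het and wildtype and 939 to 1776 between Gja9_null and Gja9_het.

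With no array block, both colours of an array are taken as independent. Then 1464, 70 and 2119 of the 9514 features were called in the 3 comparisons. The order is Gja9_null with wildtype, Gja9_het with wildtype and Gja9_null with Gja9_het. In the window around Gjd2, 11 and 15 of the 51 genes were then called in the first and last comparison. The other array pairing, at odds with the values (block correlation -0.908), gave 7121, 5747 and 7543 of the 9514 features and 40, 31 and 41 of the 51 window genes. Local centring called 2 of the 51 window genes between Gja9_null and Gja9_het, beside 1.41% of all features. In the window of 200 genes on either side it called 3 of 116 measured genes in that comparison. Without local centring, windows of 50 or 200 genes or a hand-written list called 0 in every comparison. The median of all features between Gja9_null and Gja9_het moved from -0.17 to -0.01 with quantile normalization.

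Same-numbered samples of wildtype and Gja9_het deviated together, with correlations of 0.11 to 0.23 in all 4 pairs. With the replicate number as a block, that comparison again had 0 features called. Same-numbered Gja9_null samples did not pair by this measure, with correlations of -0.09 to -0.05 with wildtype and 0.02 to 0.07 with Gja9_het. The best match in another genotype had the same number in 14 of 24 cases over the 3 genotypes, and these cases are not independent either. With the block, 44 features were called between Gja9_null and Gja9_het and 45 between Gja9_null and wildtype. The block changed no call of the 3 genes or of the window. It could not move their differences, since every genotype has the same replicate numbers.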

Other observations

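The genes of the window that differed by more than Rtf1 (-0.77 log2 units) between Gja9_null and wildtype were Arhgap11a and Nusap1, given above, Bbox1, Mfap1b, Trp53bp1 (-1.03 ± 0.64), Arl14ep (-0.84 ± 0.51), Ubr1 (-0.83 ± 0.34) and Mga (-0.80 ± 0.38). After local centring Trp53bp1 stood at -0.26, Arl14ep at -0.68, Ubr1 at -0.53 and Mga at -0.38. All genes of this paragraph were picked out after their values were seen. Bbox1, which encodes the last enzyme of carnitine synthesis, stood lower in Gja9_null, by -0.88 ± 0.33 log2 units from wildtype and -1.12 ± 0.33 from Gja9_het. Mfap1b, a spliceosome gene with a near copy, Mfap1a, in the same window, stood at -0.98 ± 0.34 and -1.27 ± 0.34, and Mfap1a at -0.43 ± 0.41 and -0.38 ± 0.41. Probes may not tell these copies apart. Local centring called both Bbox1 (-1.21 ± 0.25, limma adjusted p = 0.0345) and Mfap1b (-1.07 ± 0.24, adjusted p = 0.0445) between Gja9_null and Gja9_het. When the colours of each array were averaged as well, their adjusted p was 0.179 and 0.203. Eif3m, a subunit of the translation factor eIF3, differed by 0.74 ± 0.32 between Gja9_null and wildtype as deposited, less in size than Rtf1, and by 0.98 ± 0.21 after local centring.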
